A study of Homo sapiens with 5 samples.

Results

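Chromosome 7 below 60 Mb, which takes in its short arm, held 231 of the 11260 methylated regions found in 5 cultures of the established human leukaemia line K562. A region is a stretch of DNA covered by 1 peak, or by several peaks of different libraries that overlap by at least 1 bp. The members are all regions on chromosome 7 whose start lies below 60 Mb in the genome build hg19. This segment was chosen by the share of regions that the WT transfected library also held, and its upper limit was selected on the same values. What WT transfected kept and lacked there is therefore described and not tested.

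Methylated DNA immunoprecipitation and sequencing (MeDIP-seq) was done on 2 wild-type cultures, named WT bulk and WT transfected, and on 3 DNMT3A-mutated lines, named MT1, MT2 and MT4. All are K562 cells, labelled as bone marrow and kept in the same medium, and the mutations were made by CRISPR/Cas9 editing. The labels call the lines clones, give neither the mutation of each line nor what WT transfected received, and give no replicate of any culture. Each library is thus a single culture. A p-value between genotypes rests only on regroupings of these 5 libraries and cannot tell genotype from culture.

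Cytosines in CpG dinucleotides carry most of the DNA methylation of human cells. DNMT3A is an enzyme that writes new methyl groups on such sites, and its gene is often mutated in acute myeloid leukaemia. In MeDIP-seq an antibody pulls down methylated fragments, so that a peak marks a stretch with many methylated CpGs, and sites with few CpGs are seldom seen. The short arm of chromosome 7 carries, among others, the HOXA cluster of developmental regulators, the lymphoid transcription factor gene IKZF1 and the receptor gene EGFR. No peak was assigned to a gene, since no hg19 annotation or genome sequence was used here, and no sequence of a region is printed for the same reason.

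The lists held 23350 peaks in all, from 1426 in MT2 to 8399 in MT4, and the read depth behind a peak is unknown. The authors' score of a peak starts at 90 in every list, which is taken here as its limit. Why a region is absent from a list is not stated, and such a region cannot be called unmethylated. Scores were compared as percentiles, the rank of a peak within its own list from 0 to 100. Lists differ in length, so a percentile describes a peak's place in its list and not its methylation level.

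WT transfected had few peaks in the segment for the length of its list. It held 31 regions, against 133 in WT bulk, 54 in MT1, 32 in MT2 and 178 in MT4. As a share of the list, these were 2.14% of WT bulk peaks, 1.90% of MT1, 2.24% of MT2 and 2.12% of MT4 peaks, and 0.694% of WT transfected peaks. The other 4 shares lay close together, and that of WT transfected was below all of them. On the rest of chromosome 7 its share of 6.17% lay beside 6.86% in WT bulk, 6.83% in MT1, 7.43% in MT2 and 7.85% in MT4. Peaks covered 33.2 kb of the segment in WT transfected, while the other lists covered 181.0 kb (WT bulk), 76.3 kb (MT1), 58.8 kb (MT2) and 235.8 kb (MT4). WT transfected and MT2 thus had a like number of peaks there, although the MT2 list is the shortest of all.

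Of the 231 regions, 125 (54.1%) had a peak in a single library, 45 in 2, 38 in 3, 16 in 4 and 7 in all 5. The single-library regions were 78 of MT4, 37 of WT bulk, 5 of MT1, 3 of WT transfected and 2 of MT2. In the series they were 3388, 1356, 220, 584 and 70 of 5618, in the same order. WT transfected thus made up a smaller part of them here than in the series. In the whole series 49.9% of regions had a peak in a single library and 7.42% in all 5, against 3.03% in all 5 here. A single region was held by both wild-type libraries and by no mutated line, where such regions made up 2.74% of the series. None was held by all 3 mutated lines and neither wild-type library, where the series had 0.0710%. A scarcity of WT transfected peaks lowers the first of these numbers by construction, and nothing on genotype is read from it.

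What a library could have held was judged from the others. A region counted for a library when at least 2 of the other 4 had a peak in it. For WT transfected there were 104 such regions in the segment, of which it kept 26 (25%, 95% Wilson interval 17.7 to 34.1%) and lacked 78. Over the whole series it held 63.5% of such regions, and on the rest of chromosome 7 it held 208 of 331 (62.8%, 57.5 to 67.9%). Intervals cover counting error only, and neighbouring regions are not independent.

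Each of the other libraries held a share in the segment near its share in the series, or above it. WT bulk held 58 of 68 (85.3%, 75.00 to 91.8%) against 81.0% in the series. MT4 held 61 of 67 (91.0%, 81.8 to 95.8%) against 83.7%. MT1 held 42 of 99 (42.4%, 33.2 to 52.3%) against 43.4%, and MT2 held 26 of 102 (25.5%, 18.0 to 34.7%) against 23.0%. On the 22 other chromosomes (1 to 22 without 7, and X) WT transfected held from 47.2% of such regions on chromosome 14 to 76.1% on chromosome 4. Its median over them was 62.7%.

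**Figure D1:**
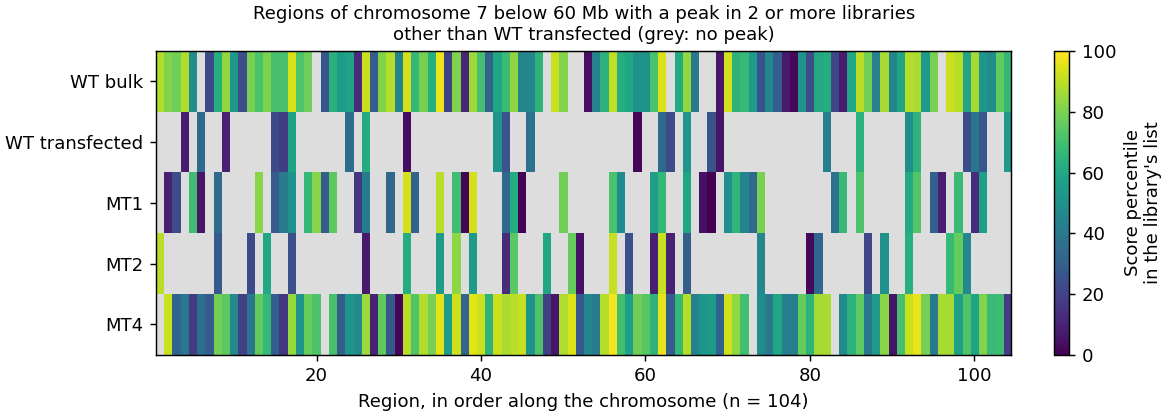
Score percentile of each of the 104 regions of the segment with a peak in at least 2 libraries other than WT transfected, in order along the chromosome (columns) and by library (rows); grey marks a region without a peak. WT transfected holds 26 of the 104, spread over the whole order and in the darker colours of low percentiles.

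The kept regions lay along the whole segment. The first began at 778276 and the last ended at 57485188. In bins of 10 Mb WT transfected kept 6 of 21 regions from 0 to 10 Mb, 3 of 15 from 10 to 20 Mb, 6 of 28 from 20 to 30 Mb, 3 of 17 from 30 to 40 Mb, 2 of 9 from 40 to 50 Mb and 6 of 14 from 50 to 60 Mb. The first 5 bins thus ran from 17.6% to 28.6% and the last reached 42.9%, with wide intervals since each bin holds few regions. In the 10 bins beyond the limit the share ran from 45.5% to 72.4%. The longest runs of lacked regions were 2 of 12 in a row, from 23454003 to 27214504 (3.76 Mb) and from 32792654 to 39874333 (7.08 Mb).

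At the limit itself the data had a gap. No library had a peak between 57485189 and 61821187, a stretch of 4.34 Mb about the centromere. Just below it, the last 3 regions with a peak in at least 2 other libraries ran from 56355225 to 56356069, from 56439265 to 56439790 and from 57484014 to 57485188. WT transfected lacked the first and second and kept the third, with a score of 126 (percentile 54.6) against 148 in WT bulk and 98.5 in MT4. Just above it, the region from 61967995 to 61971328 scored 3100 in all 5 libraries. This was also the highest score of the whole list in WT bulk, MT1, MT2 and MT4, where WT transfected reached 3202. The equal scores are therefore not read as equal methylation. Next came the region from 62573059 to 62575185, which WT transfected lacked, and that from 63249689 to 63250970, which it held with a score of 122. Any limit within the gap would select the same regions.

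**Figure D2:**
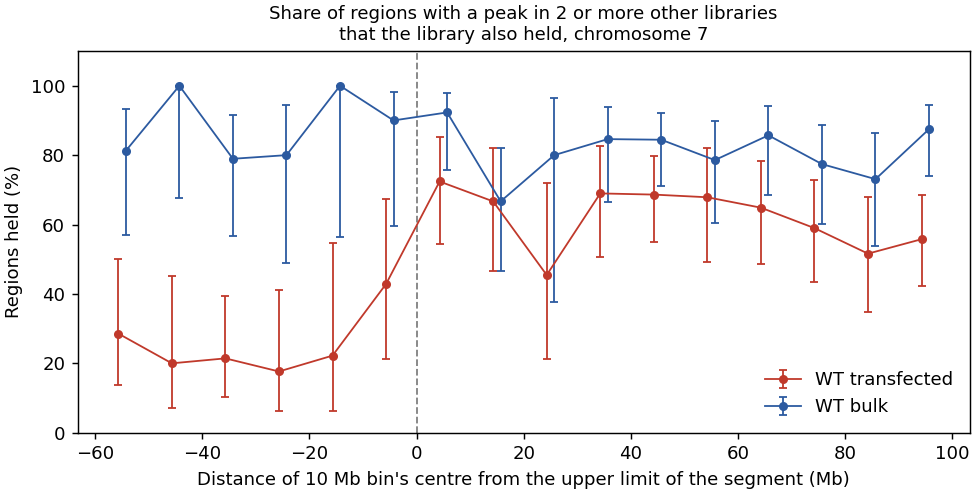
Share of regions with a peak in at least 2 other libraries that the library also held, in bins of 10 Mb along chromosome 7, by distance of the bin's centre from the 60 Mb limit (dashed line); bars are 95% Wilson intervals. WT transfected stays at or below 42.9% left of the line and at or above 45.5% right of it, while WT bulk runs between 66.7% and 100% over the chromosome.

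The shortfall was widest among the regions that most other libraries held. Of regions with a peak in exactly 2 other libraries, WT transfected kept 12 of 55 (21.8%, 13.0 to 34.4%) in the segment and 36.4% on the rest of chromosome 7, against 45.8% in the series. With 3 other libraries it kept 7 of 33 (21.2%, 10.7 to 37.8%) and 76.4%, against 74.7%. With all 4 it kept 7 of 16 (43.8%, 23.1 to 66.8%) and 97.3% (72 of 74; 90.7 to 99.3%), against 92.9%. Elsewhere a region in more of the other lists was also more often in that of WT transfected. In the segment the shares for 2 and 3 other libraries were alike, and the share for all 4, which rests on 16 regions, was higher.

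In the whole series 64 regions were held by the other 4 libraries and lacked by WT transfected. Of these, 9 (14.1%) lay in the segment, which has 2.05% of all regions. Of the 78 lacked regions, 72 were held by WT bulk, 74 by MT4, 33 by MT1 and 21 by MT2. Both of the long lists, WT bulk and MT4, held 68 of them. Outside the segment WT transfected lacked 1693 such regions. Of those, 1510 were held by WT bulk, 1549 by MT4, 579 by MT1 and 213 by MT2. The long lists thus held most lacked regions there as well, and this is no trait of the segment.

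**Figure D3:**
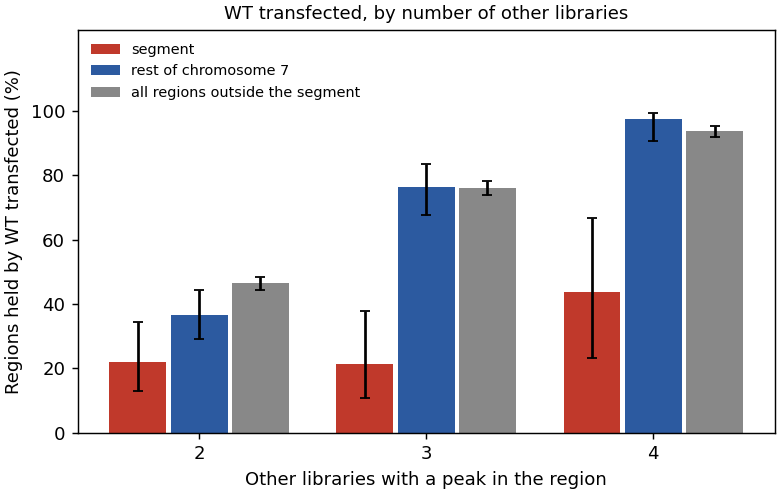
Share of regions held by WT transfected, by the number of other libraries with a peak in the region, for the segment, the rest of chromosome 7 and all regions outside the segment; bars are 95% Wilson intervals. In the segment the share is 21.8%, 21.2% and 43.8%, and outside it climbs from 46.4% to 93.8%.

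A high rank in the other lists did little to set kept regions apart from lacked ones within the segment. The median of the mean percentile in the other libraries was 61.04 (quartiles 44.5 to 75.3) for the 26 kept and 50.9 (42.4 to 72.1) for the 78 lacked regions, so that the quartile ranges overlapped over most of their length. On the rest of chromosome 7 the medians were 67.2 (51.8 to 80.3) for kept and 42.4 (26.6 to 55.02) for lacked regions. The difference, kept minus lacked, was 10.2 in the segment and 24.8 on the rest of the chromosome. It turned to -4.52 without WT bulk and to -11.8 among regions held by all 4 others, so its direction is not firm.

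A mean percentile mixes lists of unequal length, so the same difference was taken in each library alone. In WT bulk kept regions had a median percentile of 71.2 and lacked ones 61.6, and in MT4 75.2 and 65.7. In MT1 the medians were 50.7 and 50.3, and in MT2 30.4 for 9 kept and 53.9 for 21 lacked regions. The direction thus differed among the 4 libraries. On the rest of chromosome 7 kept regions stood above lacked ones in each of them, by 46.2 in WT bulk, 40.1 in MT1, 8.49 in MT2 and 31.5 in MT4.

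Split by rank, the shares of regions kept in the segment lay close together. WT transfected kept 4 of 21 below the 40th percentile, 9 of 34 from 40 to 60, 10 of 36 from 60 to 80 and 3 of 13 from 80 upwards. These shares ran from 19.0% to 27.8%. On the rest of chromosome 7 the shares in the same classes were 26.6%, 56.2%, 81.3% and 96.4% (87.9 to 99.0% in this highest class).

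Kept and lacked regions had much the same width. The median was 1530 bp (quartiles 1256 to 2049) for kept and 1413 bp (1107 to 1901) for lacked regions, with extremes of 945 and 4359 bp and of 526 and 4270 bp. A kept region includes the WT transfected peak itself, which can only widen it. Measured by the bases covered in WT bulk alone, the medians were 1237 bp for kept and 1158 bp for lacked regions. In MT4 they were 1310 and 1248 bp. For regions further along the chromosome the medians of region width were 1880 bp (kept) and 1399 bp (lacked).

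Where WT transfected did hold a region, its peak ranked low. Presence in a list and rank both rest on the score. Low rank is therefore not independent of the scarcity that chose the segment. The 31 scores of WT transfected ran from 90.4 to 141 with a median of 106. Their percentiles had a median of 30.6 and a maximum of 64.98. The highest percentile in the segment was 97.4 in WT bulk, 93.7 in MT1, 91.6 in MT2 and 98.3 in MT4. Those of the other 4 libraries thus reached a rank above 90 in their lists, as did WT transfected on the rest of the chromosome, where its highest percentile was 99.9.

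**Figure D4:**
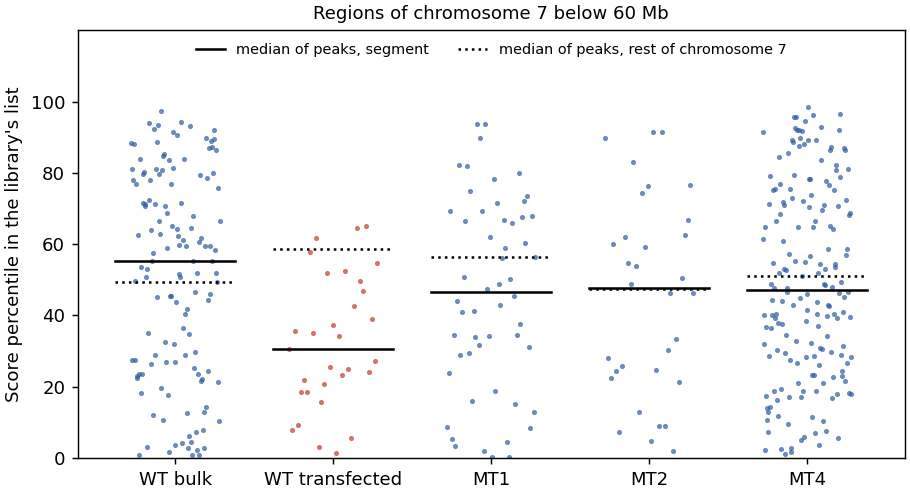
Score percentile of every region of the segment held by each library (points), with the median of the library's peaks in the segment (solid line) and on the rest of chromosome 7 (dotted line). Points of WT transfected end at 64.98, those of the other libraries reach 91.6 to 98.3.

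The same held region by region. In the 24 regions shared with WT bulk the WT transfected peak had the lower percentile in all 24, with a median difference of -35.1 (quartiles -50.8 to -22.4). Beyond the segment on chromosome 7 it was lower in 125 of 217 shared regions, with a median of -1.71. Against MT4 it was lower in 24 of 26, by a median of -30.5, where the rest of the chromosome gave -6.88. Against MT1 it was lower in 11 of 16, by a median of -7.93, where the rest gave 7.10. Against MT2 it was lower in 4 of 9 and the median was 12.7, where the rest gave 24.8. Against each library the median lay further to the lower side in the segment than on the rest of the chromosome. A low rank in shared regions was not particular to WT transfected. Its median difference from the mean of the other libraries was -21.0 in the segment and 2.80 on the rest of chromosome 7. For MT2 these were -32.1 and -22.0, and for MT1 -13.5 and -3.95. WT bulk (14.8 and 6.81) and MT4 (15.0 and 15.45) ranked above the others. The sign changed between segment and rest in WT transfected only.

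Peaks of WT transfected in shared regions were also narrower. They covered a median of 961.5 bp where those of WT bulk covered 1221.5 bp, and were narrower in 23 of 24 regions, with a median ratio of 0.694. The ratio was 0.740 against MT1 (16 regions), 0.568 against MT2 (9 regions) and 0.727 against MT4 (26 regions). Beyond the segment the same ratios were 0.933, 0.979, 0.762 and 0.957. Narrow width and low rank were found in the same peaks and are not separate observations.

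The strongest kept regions show how unequal the ranks were. The region from 28994835 to 28998720 (3886 bp) scored 251 (WT bulk), 108 (WT transfected), 134 (MT1), 170 (MT2) and 276 (MT4). Its percentiles were 94.3, 34.2, 66.7, 91.6 and 96.2 in the same order, so it stood near the top of 3 lists and in the lower part of that of WT transfected. The region from 16436625 to 16440676 (4052 bp) scored 243 in WT bulk, 209 in MT1, 119 in MT2 and 214 in MT4, and 91.2 in WT transfected. That last score is barely above the limit, at percentile 3.13, where WT bulk had 93.4 and MT1 93.7. In WT transfected the peak covered 1119 bp of this region, against 3049 to 3863 bp in the other libraries.

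WT transfected had its highest scores of the segment in 2 of these regions. That from 50467218 to 50469330 scored 141 (percentile 64.98), beside 202 in WT bulk, 143 in MT1 and 280 in MT4. That from 44910004 to 44912475 scored 140 (64.5), beside 216, 140 and 164. In both the raw score nearly matched that of MT1, while WT bulk was higher.

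The remaining 6 of the 10 leading kept regions ran from 4900949 to 4902313, 50341980 to 50343798, 22589034 to 22590288, 42275545 to 42277078, 30027850 to 30029832 and 27238208 to 27239733. Their percentiles in WT transfected were 9.28, 49.8, 51.9, 42.7, 52.6 and 1.36, against 83.9, 89.0, 59.0, 61.9, 83.9 and 51.5 in WT bulk and 75.1, 92.0, 92.1, 87.1, 89.3 and 78.1 in MT4. WT transfected ranked below both of these libraries in each of the 6.

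Regions that all 4 other libraries held and WT transfected lacked numbered 9, and several were among the strongest of the segment. The region from 26415427 to 26417110 (1684 bp) scored 222 (WT bulk), 140 (MT1), 168 (MT2) and 337 (MT4), the highest MT4 score of the segment. The region from 17338067 to 17339464 (1398 bp) scored 293 in WT bulk, 187 in MT1, 113 in MT2 and 268 in MT4, and was the highest of the segment in WT bulk. The region from 20823401 to 20825680 (2280 bp) scored 195, 208, 113 and 269 in the same order. WT transfected thus lacked the top region of both long lists.

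The next 3 of these 9 ran from 20370330 to 20371974, 23085496 to 23087138 and 55409674 to 55413375, with mean percentiles of 81.5, 77.4 and 72.6. The last 3 ran from 2471556 to 2474002, 28448963 to 28450390 and 36193407 to 36195216, at 51.1, 50.4 and 50.1. The 9 were spread over the segment, and 4 of the first 5 lay between 17 and 24 Mb. One of the 9, at 28448963, lies less than 1 Mb from the strongest kept region, so kept and lacked regions stood side by side.

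**Figure D5:**
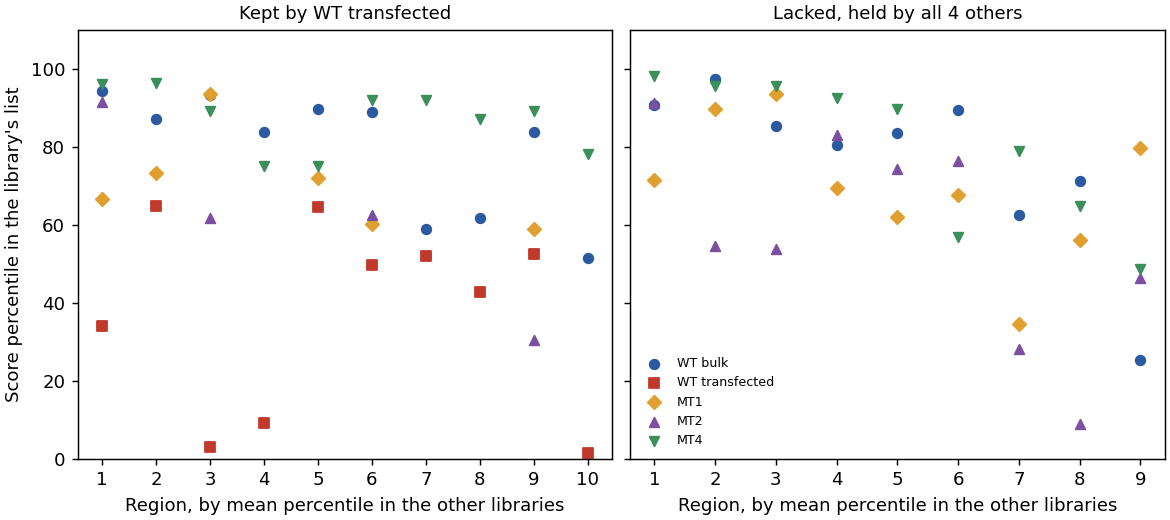
Score percentile per library of the 10 kept regions with the highest mean percentile in the other libraries (left) and of the 9 regions held by all 4 others and lacked by WT transfected (right), each ordered by that mean. On the left WT transfected has the lowest point in 9 of 10 regions, from 1.36 to 64.98; on the right it has none.

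Of the 584 regions of the series that WT transfected alone held, 3 lay in the segment. They ran from 50355910 to 50356529 (620 bp, score 118), from 768677 to 769666 (990 bp, 106) and from 19731669 to 19732341 (673 bp, 97.1). The first lies in the same stretch as the kept regions at 50341980 and 50467218. With 1 other library it shared a further 2: from 5399858 to 5402925 with MT1 (98.4 against 113) and from 20707672 to 20708797 with WT bulk (99.8 against 193).

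The genotypes were compared on 2 measures other than the one that chose the segment. Both still use the WT transfected peaks there, whose scarcity chose it, so they are not independent of that choice. Peaks in the segment had a median width of 1150 bp (WT bulk) and 970 bp (WT transfected), against 1219 bp (MT1), 1670 bp (MT2) and 1082 bp (MT4). The mean was 1324 ± 308 bp (SD, n = 3) in mutated and 1060 ± 127 bp (SD, n = 2) in wild-type libraries, and the groups overlapped. The difference was 264 bp (exact permutation test, two-sided, p = 0.4, adjusted over both measures 0.8), in a design that can give no p below 0.2. It was 90.2 bp without MT2.

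The median score percentile of peaks in the segment was 55.3 for WT bulk and 30.6 for WT transfected, beside 46.5 for MT1, 47.6 for MT2 and 47.1 for MT4. The 3 mutated lines lay within a narrow band, between the 2 wild-type libraries. The means were 47.1 ± 0.55 (SD, n = 3) and 43.0 ± 17.5 (SD, n = 2), a difference of 4.11 (exact permutation test, two-sided, p = 0.8, adjusted 0.8). Without WT transfected the difference was -8.27 and without WT bulk 16.5, so its sign depends on which wild-type culture is used.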

How the data were processed

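The deposited files give 1 peak list per library, with the start and end of each peak in hg19 and the peak caller's score. Per the peak names in the files the caller was MACS. The deposited score has no stated definition and was used to rank peaks within a list. An alternative applied a single limit, the median score of all peaks, to every list. Raw scores of named regions are given as deposited, and whether they can be compared between lists is unknown. Bowtie 1.1.1 and edgeR are named in the submitters' processing notes without a role; which version and threshold of the caller were used, and whether there was an input control, is not stated in the labels or files used here.

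Lists were merged at an overlap of 1 bp (pandas 2.3.3 and numpy 2.4.6 in Python 3.11.15; tests with scipy 1.17.1), a step checked on simulated lists. Coordinates are counted from 1. Wilson intervals have a level of 95%. No count model was fitted, since the files hold no counts. Genotypes were compared by an exact permutation test over libraries, doubling the smaller tail. Named regions were the 10 kept and 10 lacked (held by all 4 others; 9 existed) with the highest mean percentile in the other libraries, those of WT transfected alone, and 3 on either side of the limit; regions WT transfected shared with 1 other library were added after their values were seen. The members, rules and alternatives were chosen with earlier results of these data known.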

Additional observations from a re-analysis of the deposited data

How the results depend on the processing

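The share of regions of the segment kept by WT transfected, 25%, was 10% (6 of 60) with peaks at or above the median score of all lists. It was 0% (0 of 31, where 3 would be 9.68%) with lists limited to equal length. That 0 was fixed by the ranks given above. Every WT transfected peak left at equal length ranked above percentile 64.98, its highest in the segment. With a peak asked of all 4 others the share was 43.8%, and in the other settings it stayed between 22.2% and 29.3%. Its distance from the rest of chromosome 7 was 37.8 percentage points (95% interval 27.3 to 46.7). This was 59.1 with the stricter score, 56.4 with at least 3 others and 53.5 with all 4. At equal length it was 68.8, which rests on the fixed 0. Without one library it was 38.6 to 56.5, highest without MT4 and 50.5 without WT bulk. Kept minus lacked in percentile reversed to -11.8 with all 4 others and ranged from -4.52 (without WT bulk) to 5.71 without one library; it has no value at equal length, where no region was kept. The number of regions, 231, was 112 and 62 with the stricter score and equal length, and 153 (without MT4) to 229 without one library. The difference in width reversed to -10.3 bp at equal length; that in percentile reversed to -11.4 in regions held by all 5 libraries and ranged from -8.27 to 16.5 without one library. No paired analysis was possible because the labels pair no wild-type with a mutated culture. Read depth is unknown, so no absence has a limit in methylation.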
